A study of Homo sapiens with 9 samples.

Results

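Olfactory receptor genes on chromosome 1 were examined for H3K9me3, the trimethylation of lysine 9 of histone H3 that marks constitutive heterochromatin. They were taken as the protein-coding genes of GRCh38 chromosome 1 whose symbol is OR, a number, letters and a number, which gave 61 of 20037 protein-coding genes. Of these, 43 lay in a cluster at 1q44, 15 in a cluster at 1q23 and 3 near the end of the short arm. The 1q44 cluster ran from 247449118 to 248702766 (1253.6 kb from the first gene's start to the last gene's end). The 1q23 cluster ran from 158398522 to 159536007 (1137.5 kb).

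H3K9me3 was profiled by Cut&Run, in which an antibody-tethered nuclease releases the DNA around the mark for sequencing. The cells were hTERT RPE-1, a telomerase-immortalised line of human retinal pigment epithelium. The LmnB1 group consisted of stable lines overexpressing an mCherry fusion of lamin B1, a filament protein of the nuclear lamina, and the mCherry group of stable lines overexpressing mCherry alone. Clones LmnB1_16 and LmnB1_6 carried the fusion, clones mCherry_3 and mCherry_4 the control, each clone gave 2 biological replicates, and all 8 libraries came from cells given 0.05 ug/mL doxycycline for 24 hours. Each line is 1 clone, so the effect of the construct cannot be told apart from differences between clones beyond what 2 clones per construct show. A wild-type, untreated input served as the authors' shared control and has no domain list of its own. The labels do not name the promoter that drives the constructs.

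Olfactory receptors are G-protein-coupled receptors of the nasal epithelium and form the largest gene family in mammals. They lie in clusters, and an olfactory neuron expresses 1 allele of 1 receptor gene while the others stay silent. In mouse olfactory neurons the silent clusters carry H3K9me3 and gather in heterochromatin foci, and loss of the lamin B receptor is a known part of that arrangement.  The chromosome 1 genes are class II receptors, the class that expanded in land vertebrates. The 1q44 cluster held 33 genes of family OR2, 6 of OR14 and 1 each of OR1, OR6, OR11 and OR13, while the 1q23 cluster held 8 genes of family OR10 and 7 of OR6.

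The starts of 4 genes are shown because each stands for a different pattern of domains described below. They are the first gene with a promoter sequence in the RefSeq table (GRCh38.p14) for the pattern: by the 50% level used below, OR2B11 was covered in every library, OR2L13 in all but mCherry_3 replicate 2, OR2T27 in 3 LmnB1 libraries only, and OR10T2 in all but LmnB1_6 replicate 2. Each runs 5′ to 3′ from 250 bases before to 50 bases after the annotated start. Capitals mark the motifs TAATTA, the core bound by many homeodomain factors such as LHX2, and TATAAA, the letters of a TATA box, on either strand. They are matches of letters, and binding or use was not tested. At OR10T2 the annotated start is the start codon, so its printed bases need not hold the start of transcription. Its marked TTTATA is a match on the opposite strand. The patterns are those of gene bodies. The printed start of OR2L13 was covered in full in 6 libraries, and at 0% in LmnB1_6 replicate 2 as well as mCherry_3 replicate 2.
OR2B11 (chr1:247457959-247458258, minus strand): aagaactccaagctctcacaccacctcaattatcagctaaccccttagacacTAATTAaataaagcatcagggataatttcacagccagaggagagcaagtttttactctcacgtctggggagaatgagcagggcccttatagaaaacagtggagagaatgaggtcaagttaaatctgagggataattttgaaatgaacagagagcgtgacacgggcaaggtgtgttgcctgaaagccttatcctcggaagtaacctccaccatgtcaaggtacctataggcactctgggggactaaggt
OR2L13 (chr1:247936927-247937226, plus strand): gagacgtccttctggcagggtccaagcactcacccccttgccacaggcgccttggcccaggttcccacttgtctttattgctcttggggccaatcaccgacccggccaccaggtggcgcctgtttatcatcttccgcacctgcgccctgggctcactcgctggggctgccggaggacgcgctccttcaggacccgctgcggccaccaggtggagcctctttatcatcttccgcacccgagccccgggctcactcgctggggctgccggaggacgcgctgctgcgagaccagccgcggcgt
OR2T27 (chr1:248655479-248655778, minus strand): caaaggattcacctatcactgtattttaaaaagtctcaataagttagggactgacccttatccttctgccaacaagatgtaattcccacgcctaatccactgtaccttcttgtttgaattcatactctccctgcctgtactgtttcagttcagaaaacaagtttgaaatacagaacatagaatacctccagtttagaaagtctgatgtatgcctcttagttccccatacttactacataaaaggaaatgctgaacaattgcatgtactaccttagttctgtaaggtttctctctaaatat
OR10T2 (chr1:158399417-158399716, minus strand): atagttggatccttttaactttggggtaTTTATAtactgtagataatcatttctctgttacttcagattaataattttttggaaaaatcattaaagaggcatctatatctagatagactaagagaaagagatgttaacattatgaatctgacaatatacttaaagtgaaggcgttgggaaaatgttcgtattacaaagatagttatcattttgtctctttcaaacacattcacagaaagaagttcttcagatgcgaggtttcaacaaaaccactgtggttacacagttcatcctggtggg

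The table held a promoter for 51 of the 61 genes, set by the annotated start. In some genes, OR10T2 and OR2W3 among them, that start is the start codon. The motif TAATTA, which reads the same on both strands, was found in 8 of 36 1q44 promoters and 4 of 14 1q23 promoters (22.2% and 28.6%), against 22.2% of 261 olfactory receptor promoters on other chromosomes and 4.98% of all 27305 promoters of the same length. TATAAA was found in 50% of 1q44 and 21.4% of 1q23 promoters, against 33.3% of olfactory receptor promoters on other chromosomes and 12% of all promoters. TCCCNNGGGA, the form bound by EBF factors, was found in none of the 50 promoters of both clusters and in 1.2% of all promoters. Mean GC content was 38.9% ± 7.4 (SD, n = 36 promoters) at 1q44 and 40.8% ± 6.5 (SD, n = 14) at 1q23, against 38.8% ± 7.0 for olfactory receptors on other chromosomes and 57.2% ± 13.3 over all promoters. TAATTA and TATAAA hold no G or C, so promoters of unlike GC content are not an even background for them. The part of base composition in the shares with these motifs was not tested. OR2L13, printed above without a motif, stood apart with 67.3% GC. No promoter of the clusters was at least 80% identical to another promoter in the table, and the closest pairs, OR2L5 with OR2L3 and OR2M3 with OR2T12, were 74.3% identical.

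The deposited lists give broad enriched domains per library, and a domain was listed past a log2 enrichment over input of 0.6. H3K9me3 reads inside domains numbered 4467294 to 10321442 in LmnB1 libraries and 2855378 to 6959349 in mCherry libraries. Read depth relative to input was 0.88 to 1.01 in LmnB1 and 0.421 to 0.859 in mCherry libraries. Every mCherry library was thus shallower than every LmnB1 library, and the part of depth in differences between constructs was not tested. Domains covered 610.2, 534.1, 646.3 and 356.5 Mb in LmnB1_16 replicates 1 and 2 and LmnB1_6 replicates 1 and 2, against 528.7, 527.8, 429.4 and 319.7 Mb in mCherry_3 replicates 1 and 2 and mCherry_4 replicates 1 and 2. LmnB1_6 replicate 2 stood apart from the other LmnB1 libraries with the smallest covered length and the lowest pooled log2 enrichment (0.71, against 0.93 to 1.14). The mCherry_3 replicates agreed within sampling noise in their read counts over 229 domains with identical coordinates (chi-square per degree of freedom 1.08, p = 0.197). The pairs of the other 3 clones differed (1.10 to 1.73), though LmnB1_16 only slightly, with the value of 1.10. A pair from different constructs, LmnB1_6 replicate 2 and mCherry_3 replicate 2, also agreed within sampling noise over 47 such domains (chi-square per degree of freedom 1.27), so agreement does not show that 2 libraries are one. Regions where 2 lists differ are left out of these comparisons. The 229 domains are a small part of the 6115 and 6060 listed in mCherry_3 replicates 1 and 2. The mCherry_3 pair was counted as 1 sample in the cluster means, so n is 4 for LmnB1 and 3 for mCherry there. This was a choice, since the labels give the pair as 2 biological replicates and the LmnB1_16 pair was kept as 2 samples. It averages out the spread within mCherry_3, so values with 4 mCherry libraries stand beside the means of 1q44 and 1q23. Averages of single genes and bins used all 4 mCherry libraries, as did the main limma fits. The lists of the mCherry_3 replicates still differed at 1q44, as described below. A gene at 0% may still carry the mark at a level just below the threshold.

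At 1q44, domains lay over at least 50% of the body of 22 of the 43 genes in every library, and 18 of these were covered in full in all 8. The 22 formed 2 blocks. The first ran from OR2B11 to OR11L1 and held OR2B11, OR2C3, OR2G2, OR2G3, OR14L1, OR13G1, OR6F1, OR14A2, OR14K1, OR1C1, OR14A16 and OR11L1. The second ran from OR2M2 to OR2T1 and held OR2M2, OR2M3, OR2M4, OR2T33, OR2T12, OR2M7, OR14C36, OR2T4, OR2T6 and OR2T1. Both blocks mix families: the single OR1, OR6, OR11 and OR13 genes and 5 of 6 OR14 genes were among the 22, as were 13 of 33 OR2 genes. A further 7 genes were covered in 7 libraries, 11 in 1 to 6, and 3 in none.

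**Figure D1:**
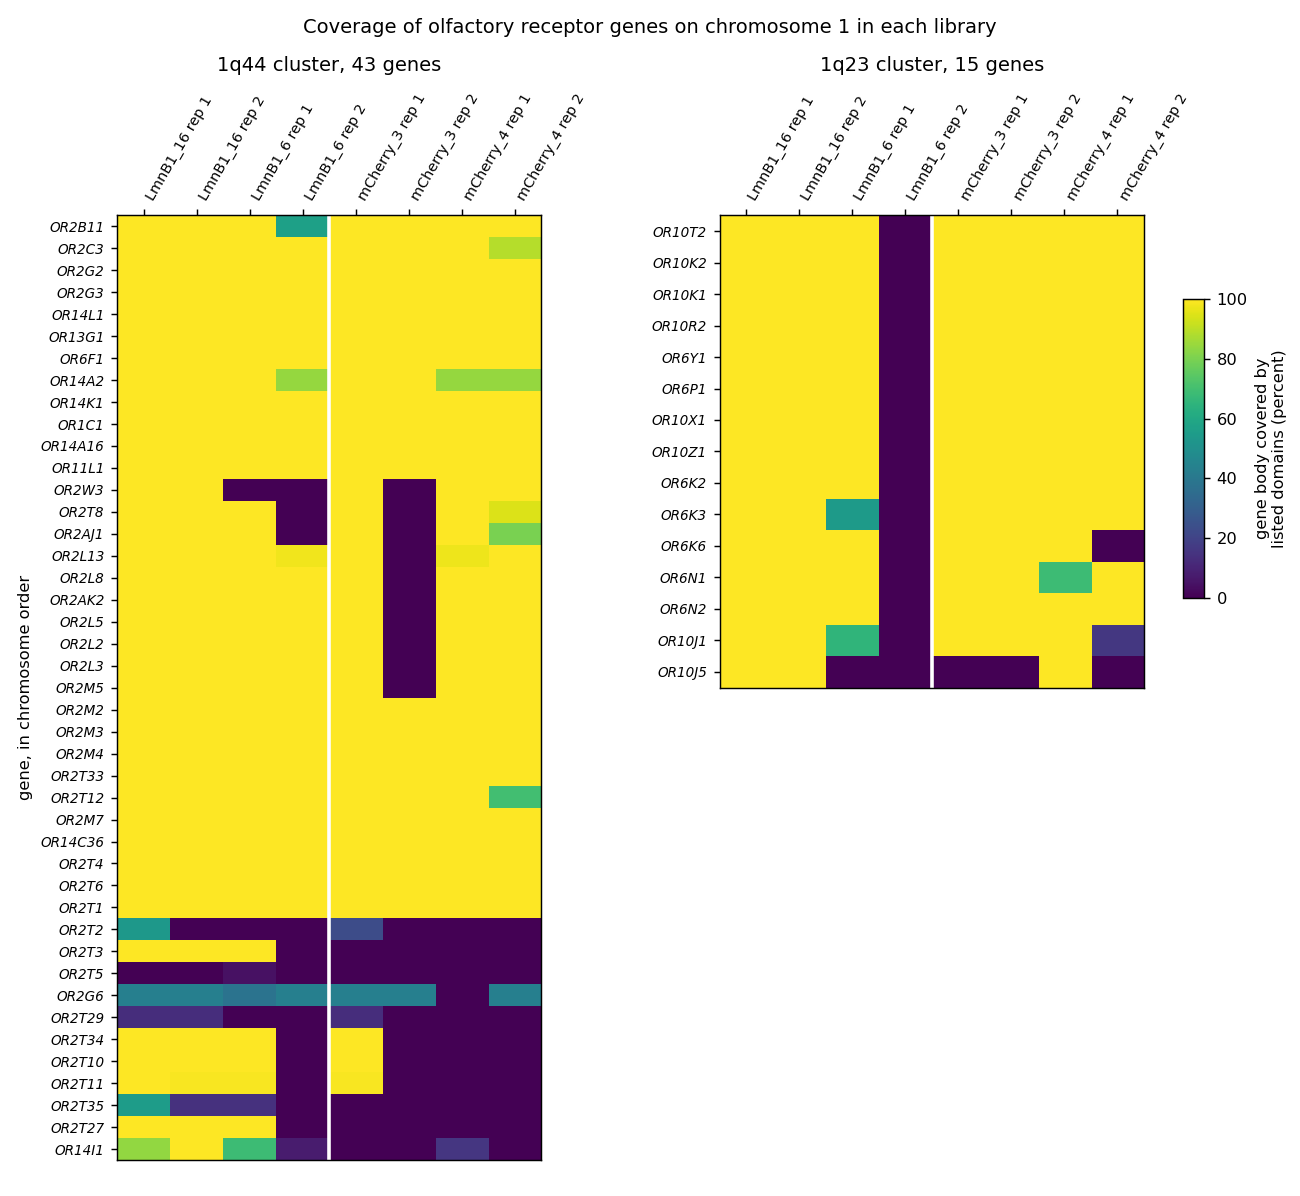
Percent of each gene body covered by listed domains, for the 43 olfactory receptor genes at 1q44 and the 15 at 1q23 (rows, in chromosome order) in the 4 LmnB1 and 4 mCherry libraries (columns, separated by the white line). At 1q44, 22 genes are bright in all 8 columns, and at 1q23 all 15 genes are dark in LmnB1_6 replicate 2.

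Between the blocks lay a stretch of 10 genes, OR2W3, OR2T8, OR2AJ1, OR2L13, OR2L8, OR2AK2, OR2L5, OR2L2, OR2L3 and OR2M5, that was at 0% in mCherry_3 replicate 2. That library listed no domain over 284 kb, from 247888001 to 248172000. The domains on either side had log2 enrichments of 1.11 and 1.03, both above the threshold. The lists hold no counts for the gap, so a domain missed in calling and a lack of reads cannot be told apart there. OR2L8, a gene of 939 bp within OR2L13, shows the pattern: it was covered at 100% in all 4 LmnB1 libraries, against 100, 0, 100 and 100% in mCherry_3 replicates 1 and 2 and mCherry_4 replicates 1 and 2. One mCherry library was thus low and the groups overlapped. A further 6 genes of the stretch had this pattern at the 50% level. OR2W3 was in addition at 0% in both LmnB1_6 libraries, and OR2T8 and OR2AJ1 were at 0% in LmnB1_6 replicate 2. In mCherry_3 replicate 1 the same stretch was covered, by domains with log2 enrichments of 1.72 and 1.07.

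The far end of the cluster, from OR2T2 to OR14I1, was the most variable. OR2T3 and OR2T27 were covered at 100, 100, 100 and 0% in LmnB1_16 replicates 1 and 2 and LmnB1_6 replicates 1 and 2, against 0% in all 4 mCherry libraries. OR14I1, the last gene, was covered at 83.8, 100, 68.5 and 7.56% in the LmnB1 libraries in that order, against 0, 0, 15.7 and 0% in mCherry_3 replicates 1 and 2 and mCherry_4 replicates 1 and 2. In these 3 genes 3 LmnB1 libraries were high, and LmnB1_6 replicate 2 lay within the range of the mCherry libraries. OR2T34 and OR2T10 were covered at 100, 100, 100 and 0% in the LmnB1 libraries and at 100, 0, 0 and 0% in the mCherry libraries, so mCherry_3 replicate 1 was high as well. OR2T11, with 74.6% on average with LmnB1 and 24.8% with mCherry, had the same pattern. OR2T2 and OR2T35 passed 50% in LmnB1_16 replicate 1 alone, at 53.2 and 55.2%. OR2G6 lay partly under a short domain and was covered at 43.3, 43.3, 38.1 and 43.3% in LmnB1 libraries, against 43.3, 43.3, 0 and 43.3% in mCherry libraries. OR2T5 and OR2T29 stayed at or under 13.2% in all 8. OR2T2 and OR2T35, OR2T3 and OR2T34, and OR2T5 and OR2T29 are known as close copies of each other, so reads could be split between them and their values are uncertain.

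**Figure D2:**
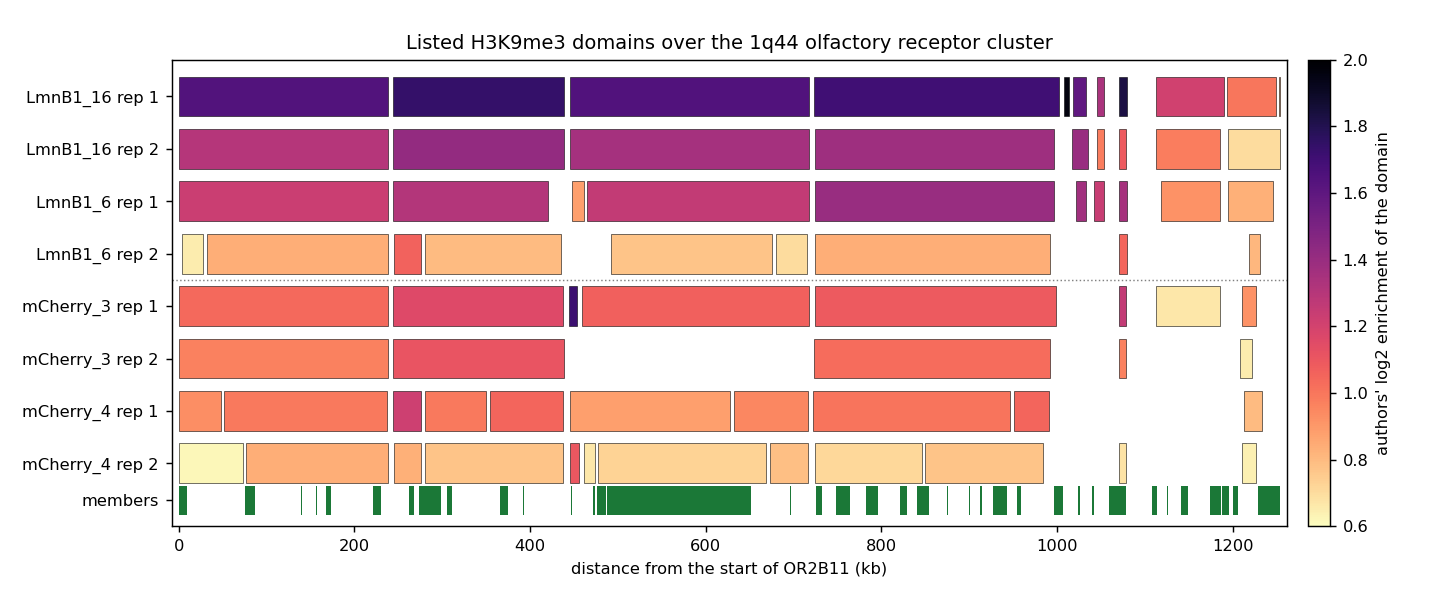
Listed H3K9me3 domains over the 1q44 cluster in each library, with distance from the start of OR2B11 in kb on the horizontal axis, colour for the authors' log2 enrichment and the gene bodies in green below. The empty stretch of 284 kb in mCherry_3 replicate 2 and the sparse right end in LmnB1_6 replicate 2 and 3 mCherry libraries can be seen.

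Some breaks between domains recurred. A gap of 6 to 7 kb between OR13G1 and OR6F1 was open in all 8 libraries, and the 6 kb from 247687001 to 247693000 were under no domain in any. A gap of 5 to 9 kb between OR2M5 and OR2M2 was open in 7 libraries, and in mCherry_3 replicate 2 it was the end of the 284 kb gap. In all, 645 of 1254 kb of the 1q44 span (51.4%) were covered in all 8 libraries and 86 kb (6.86%) in none. Domains are long relative to the genes, so neighbouring genes under 1 domain are not independent, and genes of about 1 kb are either covered or not.

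At 1q23, 12 of 15 genes were covered over at least 50% in 7 libraries, and all 15 were at 0% in LmnB1_6 replicate 2. OR10T2, OR10K2, OR10K1, OR10R2, OR6Y1, OR6P1, OR10X1, OR10Z1, OR6K2 and OR6N2 were each covered at 100, 100, 100 and 0% in LmnB1_16 replicates 1 and 2 and LmnB1_6 replicates 1 and 2, against 100% in all 4 mCherry libraries. One LmnB1 library was thus low, and the other 3 had the same value as the mCherry libraries. OR6K3 was covered at 100, 100, 54.5 and 0% in LmnB1 libraries, against 100% in all mCherry libraries. OR6N1 was covered at 68.5% in mCherry_4 replicate 1 and in full in the other 3 mCherry libraries. OR6K6 and OR10J1 were below 50% in mCherry_4 replicate 2 as well, at 0 and 16.1%. OR10J5, the last gene, was covered at 100, 100, 0 and 0% in LmnB1 libraries, against 0, 0, 100 and 0% in mCherry libraries. In LmnB1_6 replicate 2 the span held a single domain of 14 kb, from 158904001 to 158918000, with a log2 of 0.93 and no receptor gene under it.

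**Figure D3:**
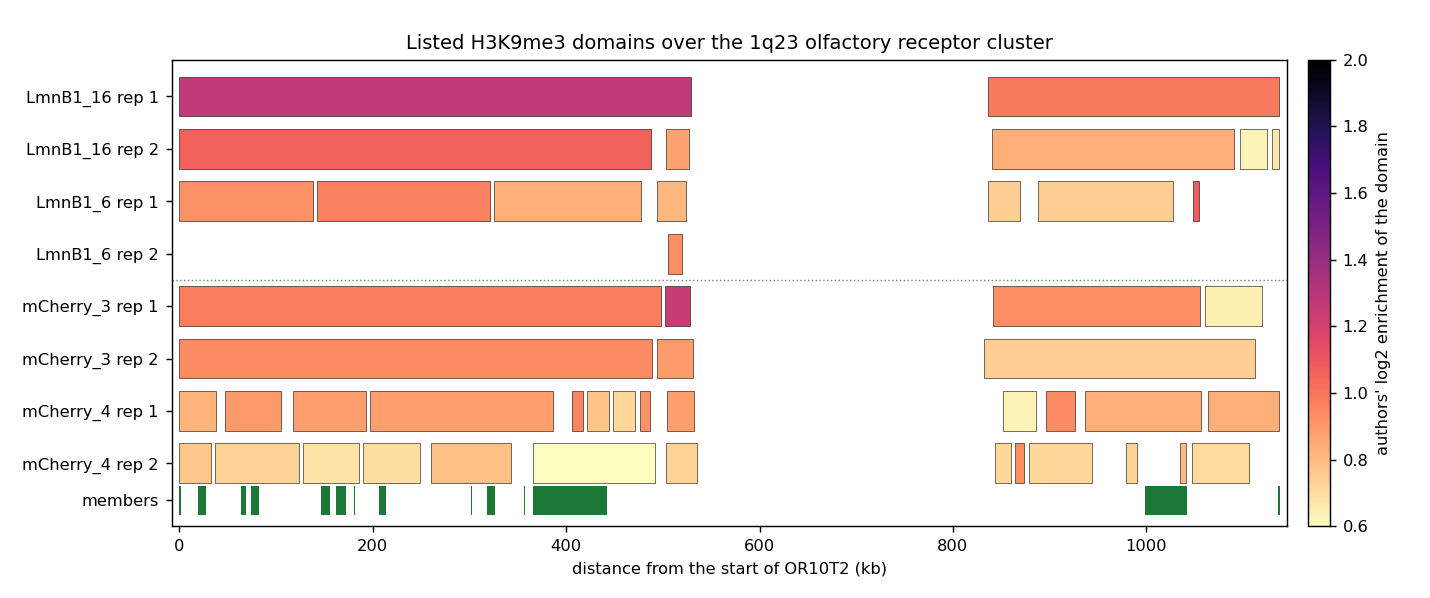
Listed H3K9me3 domains over the 1q23 cluster in each library, drawn as for 1q44, with distance from the start of OR10T2 in kb. All libraries share the empty stretch right of the centre, and LmnB1_6 replicate 2 lists a single domain of 14 kb.

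The 1q23 cluster was split by a break of 301 to 319 kb between OR6N1 and OR10J1 in the 7 libraries with domains on both sides, and 297 kb, from 158934001 to 159231000, were under no domain in any library. This break holds genes of innate immunity and others: IFI16 and AIM2, sensors of DNA, PYHIN1 and PYDC5 of the same region, the adhesion gene CADM3 and ACKR1, the Duffy chemokine receptor. PYHIN1 reached 4.13% in 1 library and the other 5 genes were at 0% in all 8. Among other non-receptor genes of the span, MNDA, a nuclear protein of myeloid cells, and FCER1A, a chain of the high-affinity IgE receptor, were covered over at least 50% in 7 libraries and at 0% in LmnB1_6 replicate 2. Of 18 protein-coding genes within 500 kb outside the span, 14 were at 0% in all 8, and CD1E, of the lipid antigen presenting family, was covered in 7. At 1q44 both non-receptor genes of the span, GCSAML and the ubiquitin ligase gene TRIM58, passed 50% in every library. Of 11 protein-coding genes within 500 kb outside that span, 6 were at 0% in all 8, among them the genes past OR14I1, from LYPD8 to PGBD2. The zinc finger genes ZNF670 and ZNF124 passed 50% in every library, ZNF695 in 7, and NLRP3, the inflammasome sensor next to OR2B11, in 6. Of 13 olfactory receptor pseudogenes in the 1q44 span, 4 passed 50% in 8 libraries, 5 in 7 and 3 in 1 to 6. Of 14 in the 1q23 span, 5 passed in 7 libraries and 9 in 1 to 6. The difference from the receptor genes was not tested.

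The 3 genes near the end of the short arm, OR4F5, OR4F29 and OR4F16, were at 0% in all 8 libraries. OR4F29 and OR4F16 are known as near-identical copies, so reads could be split or lost there and their values are uncertain.

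Averaged over the genes of a cluster, coverage at 1q44 was 91.8, 90, 86.6 and 67.2% in LmnB1_16 replicates 1 and 2 and LmnB1_6 replicates 1 and 2, against 83.2, 52.2, 74.4 and 73.5% in mCherry_3 replicates 1 and 2 and mCherry_4 replicates 1 and 2. The mean was 83.9% ± 11.3 with LmnB1 (SD, n = 4) and 71.9% ± 3.62 with mCherry (SD, n = 3), a difference of 12.1 points, and the groups overlapped. Over the 4 mCherry libraries, with the mCherry_3 replicates at 83.2 and 52.2% as 2 samples, the mean was 70.8% ± 13.2 (SD, n = 4) and the difference 13.1 points. The difference of 12.1 points became 17.6 points without LmnB1_6 replicate 2 and 6.88 without mCherry_3 replicate 2. At 1q23 the values were 100, 100, 88 and 0% in the LmnB1 libraries, against 93.3, 93.3, 97.9 and 81.1% in the mCherry libraries. The mean was 72% ± 48.3 with LmnB1 (n = 4) and 90.8% ± 8.7 with mCherry (n = 3), a difference of -18.8 points. Without LmnB1_6 replicate 2 the difference was 5.23 points, so its sign rested on that library. With the 4 mCherry libraries as separate samples, the 1q23 mean was 91.4% ± 7.22 (SD, n = 4) and the difference -19.4 points. At 1q44 the difference was close to the SD of the LmnB1 libraries and to that of the 4 mCherry libraries. It was above the SD of 3.62, in which the mCherry_3 replicates at 83.2 and 52.2% were averaged. At 1q23 the size of the difference was well within the LmnB1 SD of 48.3, where LmnB1_6 replicate 2 was at 0%. It was above the mCherry SD of 8.7.

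**Figure D4:**
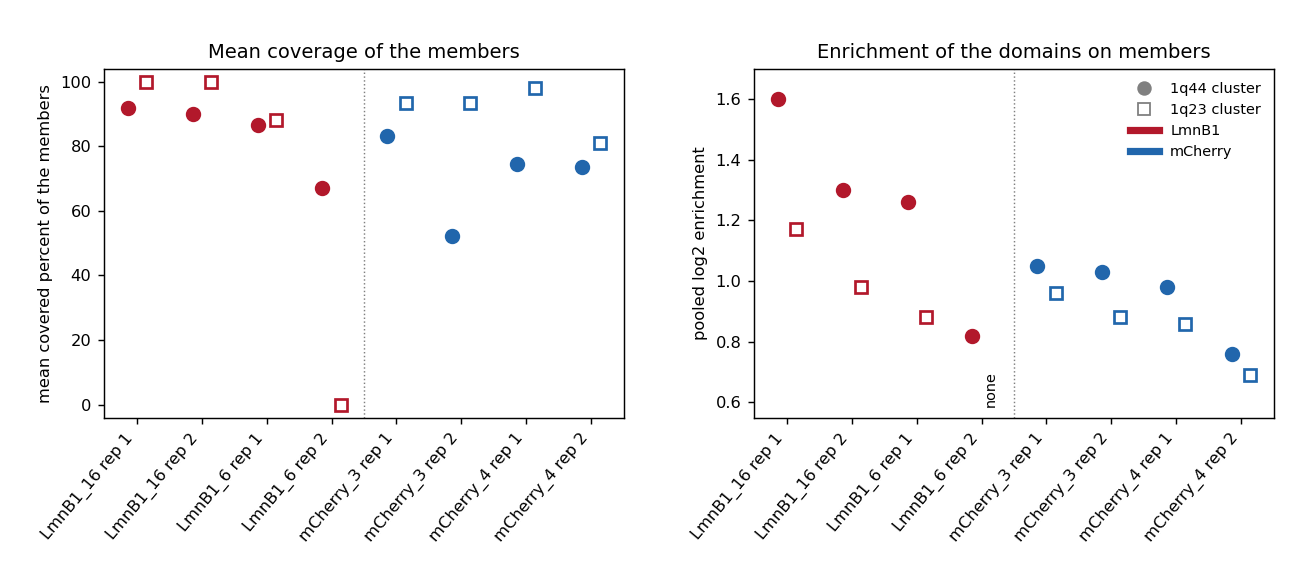
Mean covered percent of the genes of each cluster (left) and pooled log2 enrichment of the domains on them (right) in each library, with 1q44 as filled circles and 1q23 as open squares, LmnB1 in red and mCherry in blue. On the right the circle lies above the square in the 7 libraries that have both, and LmnB1_6 replicate 2 has no 1q23 value.

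Set against each other within a library, 1q44 was less covered than 1q23 in 7 of 8 libraries. The difference, 1q44 minus 1q23, was -8.17, -10, -1.39 and 67.2 points in the LmnB1 libraries and -10.1, -41.2, -23.5 and -7.57 points in the mCherry libraries, with a mean of -1.3 ± 31.5 (SD, n = 7 samples). It was -12.7 points without LmnB1_6 replicate 2. Over whole spans, which at 1q23 include the long break, 1q44 was the more covered in 7 of 8 libraries. The 1q44 span was covered over 92.2, 91.2, 88 and 73.8% with LmnB1 and 85.6, 57.8, 77.4 and 76.6% with mCherry, and 1q23 over 73, 70.1, 59.6 and 1.23% with LmnB1 and 70.1, 70.8, 62.7 and 56.7% with mCherry. Only mCherry_3 replicate 2 had less of the 1q44 span covered than of the 1q23 span.

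The domains on the receptors were more strongly enriched at 1q44 than at 1q23 in each of the 7 libraries with both. Pooling the reads of the domains on the genes, the log2 enrichment at 1q44 was 1.6, 1.3, 1.26 and 0.82 in the LmnB1 libraries, against 1.05, 1.03, 0.98 and 0.76 in the mCherry libraries. At 1q23 it was 1.17, 0.98 and 0.88 in the first 3 LmnB1 libraries, with none listed in LmnB1_6 replicate 2, against 0.96, 0.88, 0.86 and 0.69 in the mCherry libraries. The difference between the clusters on the log2 scale was 0.43, 0.32 and 0.38 in the 3 LmnB1 libraries and 0.09, 0.15, 0.12 and 0.07 in the mCherry libraries. These values rest on domains called separately in each library above the same lowest log2, so they move with what was called. The domains summed 1225, 1197, 1130 and 925 kb at 1q44 in the LmnB1 libraries, against 1111, 750, 974 and 953 kb in the mCherry libraries. At 1q23 they summed 1016, 884 and 700 kb in the first 3 LmnB1 libraries, against 825, 891, 630 and 454 kb in the mCherry libraries. No test was made. Whole lists had a pooled log2 of 1.14, 0.95, 0.93 and 0.71 in LmnB1 libraries, against 0.89, 0.88, 0.86 and 0.72 in mCherry libraries, so the 3 LmnB1 libraries with both clusters also had the highest enrichment over whole lists, and its part in the result was not tested. With domains of log2 at least 1 only, mean coverage of the 1q23 genes was 86.7, 86.7, 0 and 0% in LmnB1_16 replicates 1 and 2 and LmnB1_6 replicates 1 and 2, against 0% in all 4 mCherry libraries. Only the clone LmnB1_16 thus had 1q23 genes under such domains. The highest log2 of a domain on 1q23 genes was 1.27 and 1.06 in LmnB1_16 replicates 1 and 2 and 0.97 in LmnB1_6 replicate 1. In the mCherry libraries it was 0.98, 0.94, 0.96 and 0.8, so several libraries fell just short of this cutoff.

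Between constructs, no receptor gene on chromosome 1 passed the test. In the limma fit over all 2304 protein-coding genes with a mean coverage of at least 5%, 7 genes passed an adjusted p of 0.05 (0.304%), 5 higher and 2 lower with LmnB1. Of the 61 receptor genes, 56 passed the coverage filter (41 of 43 at 1q44, 15 of 15 at 1q23 and none of the 3 on the short arm), and limma called 0 of 56. The lowest adjusted p among them was 0.907. At an unadjusted p below 0.05, limma had 1 of the 56, OR14I1, and 84 of all genes. No receptor gene had all 4 LmnB1 values on one side of all 4 mCherry values, against 3.08% of all genes tested. The 18 genes at 1q44 that were covered in full in all 8 libraries could be neither called nor separated. The 0 of 56 is therefore fixed in part by full coverage and is no result about these genes.

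The largest differences were at the far end of 1q44. OR2T3 and OR2T27 averaged 75% with LmnB1 and 0% with mCherry, a difference of 75 points (SE 31.5, limma adjusted p = 0.907). The average for OR14I1 was 64.9% in LmnB1 libraries and 3.92% in mCherry libraries, which differed by 61 points with an SE of 23.7 (limma adjusted p = 0.907). OR2T34 and OR2T10 differed by 50 points (SE 44.5) and OR2T11 by 49.8, both with limma adjusted p = 0.911. At 1q23, OR6K3 differed by -36.4 points (SE 25.2, limma adjusted p = 0.911), and the 10 genes covered in full elsewhere by -25 points (SE 31.5). Over the genes tested, the median difference was 1.31 points at 1q44 (21 higher, 2 lower of 41) and -25 at 1q23 (1 higher, 13 lower of 15), against 3.73 over all genes (1386 higher, 732 lower). With 1 library left out, the 1q44 median lay between 0 and 3.51 points, and it was 0 without LmnB1_16 replicate 1 or 2, LmnB1_6 replicate 1, mCherry_3 replicate 2 or mCherry_4 replicate 2. The median over all genes was then as low as 0.267 points, without LmnB1_6 replicate 1, and the 1q23 median was between -45.5 and 0 points.

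Without LmnB1_6 replicate 2, limma called 57 of 2358 genes higher with LmnB1 (2.42%), and 3 of 57 receptor genes were among them. OR2T3 and OR2T27 then differed by 100 points (SE 1.28, limma adjusted p = 2.18e-07) and OR14I1 by 77.9 points (SE 11.3, limma adjusted p = 0.0275). The small SE of the first pair comes with values of 100% in every LmnB1 library and 0% in every mCherry library, so no spread was measured. The median difference at 1q23 was then 0 points (4 higher, 1 lower of 15), against 8.77 over all genes (1705 higher, 491 lower). The 13 lower genes at 1q23 in the full set thus rested mostly on LmnB1_6 replicate 2. In 500 kb bins, limma called 5 of 2143 (0.233%), all higher with LmnB1, and none of the 8 tested bins that hold receptor genes of both clusters was among them (adjusted p = 1 in each). The bin from 248500001 to 249000000, with the far end of 1q44, was covered over 26.6% with LmnB1 and 10.1% with mCherry on average (16.4 points, SE 10.6).

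The share of genes with at least 50% coverage in all 8 libraries was 51.2% at 1q44 and 0 at 1q23, where 80% of genes passed in at least 7. Of 171 olfactory receptor genes on chromosome 11, 22 (12.9%) passed in all 8 libraries and 78 were at 0% in all. On the chromosomes other than 1 and 11, 5 olfactory receptor genes (3.16%) passed in all 8 and 67.1% were at 0% in all. ZNF genes on chromosome 19, a class known for H3K9me3, reached 31.6% of 250, and all protein-coding genes 1.82%. No test was made, since genes under 1 domain are not independent.

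**Figure D5:**
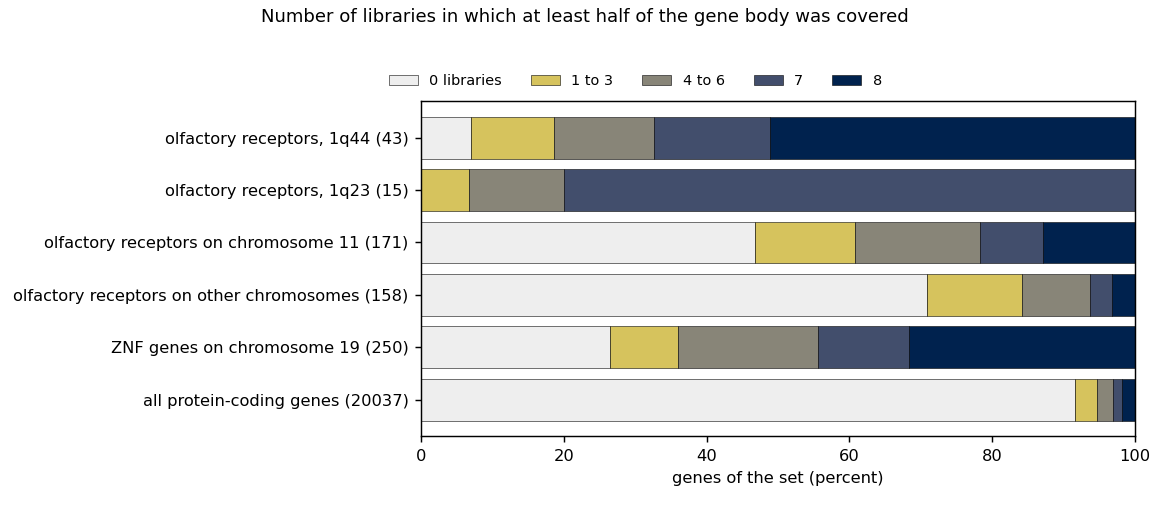
Share of the genes of each set (number of genes in parentheses) by the number of libraries in which at least 50% of the gene body was covered. At 1q44, 51.2% of genes are covered in all 8 libraries, against 12.9% of olfactory receptor genes on chromosome 11 and 1.82% of all protein-coding genes.

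Over all protein-coding genes, 79.3% were at 0% in all 8 libraries, and the lists of related genes are given beside that share. Of 16 genes of olfactory signal transduction, 9 were at 0% in all and none was called. ANO2, the chloride channel of the olfactory cilium, was covered over 70 to 72.3% in LmnB1 libraries and 66.7 to 83% in mCherry libraries. CNGA2, a subunit of the olfactory cyclic nucleotide gated channel, was covered at 5.21, 0, 0 and 0% in LmnB1 libraries, against 76.3, 100, 100 and 0% in mCherry libraries (-67.8 points, limma adjusted p = 0.907). Of 13 regulators of receptor choice and nuclear position, 10 were at 0% in all, and EBF3, of the EBF factors, was covered over at least 97.5% in 6 libraries. Of 11 genes of H3K9 methylation and HP1, 9 were at 0% in all and none reached 50% in any. All 13 housekeeping genes were at 0% in all libraries, as were 10 of 12 retinal pigment epithelium markers, 4 of 4 epithelial and 3 of 3 mesenchymal markers. Among the exceptions, MITF was covered in LmnB1_6 alone, at 100 and 64.4%, and OTX2 in LmnB1_16, at 100 and 29.3%. Domains do not measure expression, so these values do not check the identity of the cells.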

How the data were processed

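H3K9me3 Cut&Run was analysed in 8 libraries. The genes, lists and tests were chosen with earlier results of these data known. Per the labels' protocols, DNA came from a CUTANA protocol with antibody ab8898. Per the submitters' processing notes, the builds were GRCh38 and hg38 and the tools included SICER, DESeq2, deepTools and DiffBind 3.0.15, without roles. The sources used here do not give the aligner.

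Domains were called per library, and the deposited lists give read counts of library and input, p-values, a score equal to 100 times the log2 enrichment, and that log2 value, all as the authors' values, with starts on steps of 1000 bp. The counts exist for listed domains only, so no count model was run. The p-values were not used.

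Covered percents of gene bodies (RefSeq, GRCh38.p14) and of 500 kb bins were computed with Python 3.11.15 and pandas 2.3.3. Features with a mean of at least 5% were fitted with limma 3.58.1 (R 4.3.3) on all 8 libraries, with clone as random block, and p-values adjusted over all features by Benjamini-Hochberg. Differences are LmnB1 minus mCherry in percentage points. Pooled log2 is the log2 ratio of summed library to summed input counts plus the list's depth constant. Functions were tested on simulated data. Named genes were, per cluster, the 10 with the highest mean coverage and the 6 with the largest difference, with neighbours and listed genes. Others were named after their values were seen. Not every neighbour is reported here. Alternatives are given in the closing section. Replicates came from separate biological replicates per the labels, and read depth relative to input was 0.88 to 1.01 in LmnB1 and 0.421 to 0.859 in mCherry libraries.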

Additional observations from a re-analysis of the deposited data

Results flagged for a closer look

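In groups of 4 libraries, a sample far from the others by Dixon's criterion was found for the values below. For normally distributed values, chance meets the criterion in about 1 of 20 groups. Coverage of single genes was often 0 or 100%, and a group with all but 1 library tied always meets it. That rate therefore does not hold for single genes, and genes under 1 domain are not independent. LmnB1_6 replicate 2 had a mean coverage of 0% at 1q23, while the other LmnB1 libraries had 88 to 100%, and so its difference of 1q44 minus 1q23 was 67.2 points, while the other LmnB1 libraries had -10 to -1.39. The same library was at 0% for OR10T2, OR10K2, OR10K1, OR10R2, OR6Y1, OR6P1, OR10X1, OR10Z1, OR6K2 and OR6N2 at 1q23 and for OR2T3, OR2T34, OR2T10, OR2T11 and OR2T27 at 1q44. Among mCherry libraries, mCherry_3 replicate 1 was high at OR2T34 and OR2T10 (100%) and OR2T11 (99.2%), and mCherry_4 replicate 1 at OR14I1 (15.7%). Beyond the genes named by rule, mCherry_3 replicate 2 stood apart in 9 genes of the stretch between the blocks of 1q44.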

How the results depend on the processing

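Limma's 7 genes became 0 with domains of log2 at least 1 (118 at an unadjusted p below 0.05 of 1363 tested) and 8 to 60 with 1 library left out: 60 without LmnB1_6 replicate 2, 15 without mCherry_4 replicate 2 and 11 without either mCherry_3 replicate. The count of receptor genes called was 0 in 19 alternatives and 3 without LmnB1_6 replicate 2 (0 to 3 over libraries left out). The 5 bins became 0 with the highest-scoring 50% of domains (62 at an unadjusted p below 0.05) and with log2 of at least 1 (131), 1 at equal covered length, 12 with domains under 10 kb apart joined, 21 without the clone block, 16 with the library mean subtracted and 3 to 8 with a library left out. The 7 genes were 5 higher and 2 lower, and no bin was lower. At equal covered length the 1 bin called was lower.

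The difference at 1q44 (12.1 points) was 32.3 with log2 of at least 1, 0 as a median of members and 6.88 to 17.6 with a library left out. At 1q23 (-18.8) it was 43.3 with log2 of at least 1, where only the LmnB1_16 libraries were above 0, and -28.1 to 5.23 with a library left out, positive without LmnB1_6 replicate 2. The mean of 1q44 minus 1q23 (-1.3) was 11.4 with the highest-scoring 50%, 23.5 with log2 of at least 1, 3.31 at equal covered length, 0.17 over the interval around the start, 14.3 as a median, 25.3 over spans and -12.7 to 2.41 with a library left out. It was above 0 without LmnB1_16 replicate 2 (0.148), mCherry_3 replicate 2 (0.917) or mCherry_4 replicate 1 (2.41). The causes were not tested. OR6K3, OR10T2, OR10K2, OR10K1, OR10R2 and OR6Y1 reversed to 50 points with log2 of at least 1 (limma adjusted p = 0.602). Domains on 1q23 genes outside LmnB1_16 reached a log2 of up to 0.98, just under that cutoff.

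Replicate numbers were not tied across clones: replicate differences correlated between clones at -0.02 to 0.1. With a replicate block limma called 7 genes, 0 receptor genes and 8 bins. Treating the mCherry_3 replicates as 1 sample in the fit, chosen after seeing the data, gave 7 genes, 0 receptor genes and 5 bins, and counting them as 2 samples gave 13.1, -19.4 and -4.34 points for the cluster values. Leaving out near-identical proteins was not run. Depth limits what a missing domain shows, since regions under the authors' threshold have no counts.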
